A study of Mus musculus with 30 samples.

Results

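The 9 genes described here encode the enzymes that write and remove DNA methylation, together with 2 partners that do not themselves methylate DNA. They are Dnmt1, Uhrf1, Dnmt3a, Dnmt3b, Dnmt3l, Tet1, Tet2, Tet3 and Tdg, and they were taken by gene symbol from the 22477 genes of the expression table. No threshold on their values was used, but the choice was made with earlier results of these data known. The study asked how mouse pluripotent cells lose the ability to return to the NANOG-positive state as they differentiate. RNA-seq was done on polyadenylated RNA of 1 line of secondary iPSCs that carries transgenes for Oct4, Sox2, Klf4 and cMyc (OSKM), switched on by doxycycline (dox), GFP in the Nanog locus and a constitutive nuclear RFP, and all 15 conditions share these alleles. The line was kept on CF1 mouse embryonic fibroblasts in serum/LIF, was moved to 2i/LIF, and was then differentiated without a directing factor by 2i/LIF withdrawal in N2B27 for 0, 24, 36, 48, 60, 72 or 96 h. Cells from 0, 24, 48 and 96 h were also plated again in serum/LIF and collected 48 h later, having had no dox (–dox) or 2 µg/ml of it to induce OSKM (+dox). The methods describe withdrawal on gelatin after plating at low density, and re-seeding at a lower density on CF1 feeders, for the colony assay, and do not say whether the RNA-seq cells were grown the same way, so the re-seeded cells may differ from the timepoints in medium, feeders and density together.

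Each condition had 2 replicate samples, but the table holds 1 value per gene and condition that combines both, in FPKM, that is, fragments scaled to transcript length and to the number of mapped fragments. No spread between replicates can be computed, so no difference below has a test or an error, and read depth is unknown. A gene was counted as risen or fallen when the ratio of its values was at least 2-fold and the higher value was at least 1 FPKM. Outside the closing sections, counts of members are given beside the share of all genes that met the same rule. In bulk RNA, fewer cells of a type and less RNA per cell cannot be told apart. The cell labels were checked against markers. Nanog, a regulator of the naive state, went from 227 FPKM at 0 h down to 6.45 FPKM at 48 h, and then stood at 21.7, 38.9 and 14.5 FPKM at 60, 72 and 96 h, so its fall was not steady. Fgf5, a marker of the formative state that follows, went from 0.164 to 37.3 FPKM between 0 and 48 h. Fibroblast genes were also present at 0 h. The 20 fibroblast markers examined summed to 1274 FPKM at 0 h, to 399 FPKM at 24 h, to 481 FPKM in 96 h –dox and to between 71.9 and 199 FPKM in every other condition. Vim, 1 of the 20, made up much of these sums. It was at 382 FPKM at 0 h, at 299 FPKM both at 24 h and in 96 h –dox, and between 25.5 and 152 FPKM elsewhere.

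DNA methylation in mammals sits mainly on cytosines of CpG dinucleotides. DNMT1, brought to newly replicated DNA by UHRF1, copies existing methylation to the new strand, whereas DNMT3A and DNMT3B set new methylation and DNMT3L, which has no catalytic activity of its own, stimulates them. TET1, TET2 and TET3 oxidise methylcytosine, and TDG cuts out the more highly oxidised forms so that base excision repair can restore cytosine. Naive mouse cells in 2i/LIF are known for low global methylation, serum/LIF cells for higher methylation, and the exit from naive pluripotency for a wave of de novo methylation.

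The start-site windows of 4 members are shown because Dnmt3l and Dnmt3b were the first and the last of their family to peak and Tet1 and Tet2 were the members that changed with dox, and because their CpG content differs widely. Each is 300 bases of RefSeq sequence on GRCm38.p6, from 250 bases before to 50 bases after an annotated start, written 5′ to 3′ on the gene's strand with every CpG in capitals. They are Dnmt3b at chr2:153649199-153649498 on the plus strand, the most upstream of 3 Dnmt3l windows at chr10:78042037-78042336 on the plus strand, Tet1 at chr10:62887275-62887574 on the minus strand and Tet2 at chr3:133544341-133544640 on the minus strand. The expression values are per gene, so they do not show which annotated starts these cells used. The Dnmt3l window lies within the gene Aire on the other strand, and the Gencode Tet1 gene extends upstream of its window, to 62908996.
Dnmt3b: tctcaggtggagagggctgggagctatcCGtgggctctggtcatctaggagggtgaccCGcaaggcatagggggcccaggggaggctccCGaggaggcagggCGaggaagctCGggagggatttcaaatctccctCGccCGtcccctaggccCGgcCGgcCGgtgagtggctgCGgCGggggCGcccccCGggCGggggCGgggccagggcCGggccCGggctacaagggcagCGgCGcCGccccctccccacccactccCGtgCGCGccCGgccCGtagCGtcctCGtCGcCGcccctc
Dnmt3l: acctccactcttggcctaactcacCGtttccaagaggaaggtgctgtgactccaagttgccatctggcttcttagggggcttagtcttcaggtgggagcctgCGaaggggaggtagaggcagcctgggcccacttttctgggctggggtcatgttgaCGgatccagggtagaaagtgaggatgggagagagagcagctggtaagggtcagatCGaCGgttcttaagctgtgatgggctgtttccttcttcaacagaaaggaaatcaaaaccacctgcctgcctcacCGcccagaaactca
Tet1: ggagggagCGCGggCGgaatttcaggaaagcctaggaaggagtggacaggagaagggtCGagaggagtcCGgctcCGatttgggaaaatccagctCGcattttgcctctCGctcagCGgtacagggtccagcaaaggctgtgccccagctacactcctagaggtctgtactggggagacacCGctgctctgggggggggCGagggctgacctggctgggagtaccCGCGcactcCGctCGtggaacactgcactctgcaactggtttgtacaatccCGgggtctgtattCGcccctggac
Tet2: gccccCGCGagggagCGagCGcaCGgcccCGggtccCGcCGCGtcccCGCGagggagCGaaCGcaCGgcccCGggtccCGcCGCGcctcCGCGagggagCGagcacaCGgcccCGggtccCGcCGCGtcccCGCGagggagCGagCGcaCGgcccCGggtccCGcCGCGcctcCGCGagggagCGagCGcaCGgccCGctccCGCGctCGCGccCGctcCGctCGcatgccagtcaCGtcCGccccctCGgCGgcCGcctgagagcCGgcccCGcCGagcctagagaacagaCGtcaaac

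The Dnmt3l window held 6 CpGs, the Tet1 window 17, the Dnmt3b window 30 and the Tet2 window 57. The median over 32851 such windows of all genes was 7, with quartiles of 3 and 20. The other 2 Dnmt3l windows held 4 and 3 CpGs, while the 3 windows of Dnmt3a held 46, 47 and 18, so the 3 Dnmt3 genes that changed together below do not share a CpG content at these annotated starts. Among the remaining members, Tet3 had 22 CpGs, Tdg 26, and the windows of Dnmt1 and Uhrf1 with the most CpGs had 33 each. Short motifs of the reprogramming factors were searched on both strands. The octamer ATGCNAAT was in none of the 16 windows of the 9 members and in 3.15% of all windows, ACAAAG (Sox) was in 1 Dnmt3a and 1 Dnmt3l window and in 18.7% of all, GGGNGTGG (Klf4) was in the Dnmt3b window, in both Uhrf1 windows and in 2 Dnmt3l windows and in 17.6% of all, and CACGTG (Myc) was in the Tdg window, in 1 Dnmt3a and 1 Dnmt3l window and in 7.15% of all. Of the E2F forms, TTTGGCGC was in 1 Dnmt1 window and in 0.514% of all, and TTTCCCGC was in no window of a member and in 1.07% of all. These matches describe the letters of the windows and say nothing about binding.

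The time course asked which of these genes follow the exit from the naive state. The de novo genes rose and fell in a pulse whose members peaked in turn, Dnmt3l at 24 h, Dnmt3a at 36 h and Dnmt3b at 48 h. Tet1 and Tet2 were lower at the end and Tet3 was higher, and Dnmt1 moved least. In all, 8 of the 9 members differed by at least 2-fold between some pair of timepoints, Dnmt1 being the exception, against 60.7% of the 14091 genes that reached 1 FPKM at some timepoint. With every condition scaled to an equal sum the count was 7, since the range of Uhrf1 then fell below 2-fold. The member counts for single intervals are small, and they are given with each interval below.

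**Figure D1:**
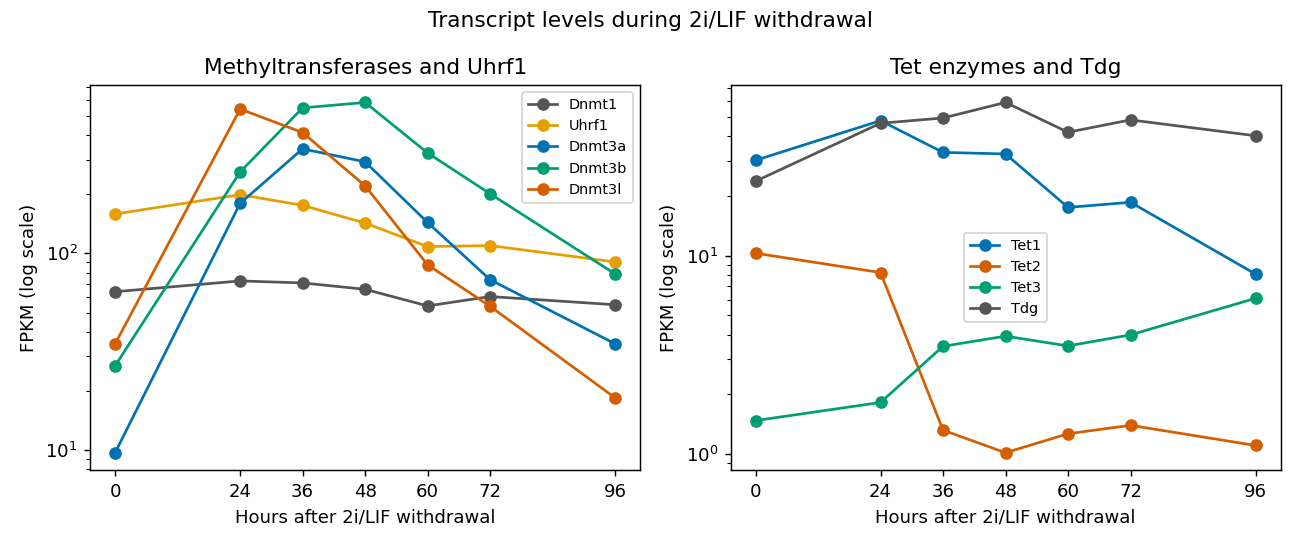
FPKM of the 9 genes (log-scaled vertical axis) against hours after 2i/LIF withdrawal (horizontal axis), with 1 point per timepoint that combines 2 replicates and no error bars because replicate values are not in the table. Dnmt3l, Dnmt3a and Dnmt3b peak at 24, 36 and 48 h, Dnmt1 stays between 54.1 and 72.5 FPKM, and Tet2 and Tet3 cross between 24 and 36 h.

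Dnmt1, the maintenance methyltransferase, was at 63.9, 72.5, 70.8, 65.7, 54.1, 60.4 and 54.9 FPKM at 0, 24, 36, 48, 60, 72 and 96 h. Its highest and lowest timepoints differed by 1.34-fold. Uhrf1, which reads hemimethylated CpGs for DNMT1, was at 158.7, 199, 176, 143, 108, 109.6 and 90.5 FPKM at the same times. Uhrf1 was highest at 24 h, as Dnmt1 was, and its level at 96 h was 0.455 of that peak, whereas Dnmt1 was still at 0.757 of its own. The ratio of Uhrf1 to Dnmt1 FPKM went from 2.48 at 0 h to 2.74 at 24 h and 1.65 at 96 h.

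Dnmt3l, the cofactor, was at 34.7, 542, 412, 221, 87.5, 53.9 and 18.5 FPKM over the 7 timepoints. It was 15.6-fold higher at 24 h than at 0 h, and it was the only one of the 3 Dnmt3 genes that ended lower than it began, at 0.532 of its 0 h level. Dnmt3a, a de novo methyltransferase, was at 9.71, 179.7, 340.2, 292, 144, 73.6 and 34.7 FPKM. Its rise to 36 h was 35.0-fold, the steepest of the 9 genes, from the lowest start in its family. Dnmt3b, the other de novo methyltransferase, was at 26.8, 259.5, 549, 585.5, 324, 201 and 78.7 FPKM. Its peak at 48 h was 21.8-fold above 0 h and was close to its 36 h level. With straight lines drawn between timepoints, Dnmt3l was back to 50% of its peak at 44.8 h, Dnmt3a at 57.9 h and Dnmt3b at 63.1 h, so the order of the peaks was also the order of the falls. At 96 h Dnmt3a was still 3.58-fold and Dnmt3b 2.93-fold above 0 h.

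These staggered pulses changed the make-up of the family. The summed level of the 3 Dnmt3 genes went from 71.3 FPKM at 0 h up to 1301 FPKM at 36 h and down to 132 FPKM at 96 h. Dnmt3l made up 48.7%, 55.2%, 20.1% and 14% of that sum at 0, 24, 48 and 96 h. Dnmt3b made up 26.5% at 24 h and 61.2% at 72 h, and Dnmt3a stayed between 22.4% and 26.6% from 36 h on. The cofactor was thus the most abundant of the family per length at 24 h and the least abundant from 48 h on. Relative to Dnmt1, the Dnmt3 sum was 1.12-fold at 0 h and 18.4-fold at 36 h.

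Tet1, the main Tet transcript of pluripotent cells, was at 30.3, 48.0, 33.2, 32.6, 17.5, 18.6 and 8.09 FPKM. It was highest at 24 h and at 96 h had fallen to 0.267 of its 0 h level. Tet2 was at 10.3, 8.23, 1.32, 1.02, 1.27, 1.40 and 1.11 FPKM. Most of its fall lay between 24 and 36 h, and it stayed between 1.02 and 1.40 FPKM from then on. Tet3, known from the oocyte and from differentiated cells, was at 1.48, 1.82, 3.50, 3.93, 3.51, 3.99 and 6.10 FPKM, a rise of 4.13-fold by 96 h. Tet3 was above Tet2 at every timepoint from 36 h. Tet1 remained the highest Tet transcript throughout the time course, with 72.0% of the Tet sum at 0 h, 87.3% at 36 h and 52.9% at 96 h, when Tet3 held 39.9%. The Tet sum stood at 42.1, 58.0 and 15.3 FPKM at 0, 24 and 96 h, and the ratio of the 4 Dnmt genes to the 3 Tet genes went from 3.22 at 0 h to 36.1 at 36 h and 12.2 at 96 h.

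Tdg, the glycosylase, was at 23.8, 46.5, 49.4, 59.2, 41.9, 48.4 and 40.2 FPKM. Its highest value, at 48 h, was 2.49-fold above its lowest, at 0 h, and unlike the Dnmt3 genes it kept 67.9% of the peak at 96 h.

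**Figure D2:**
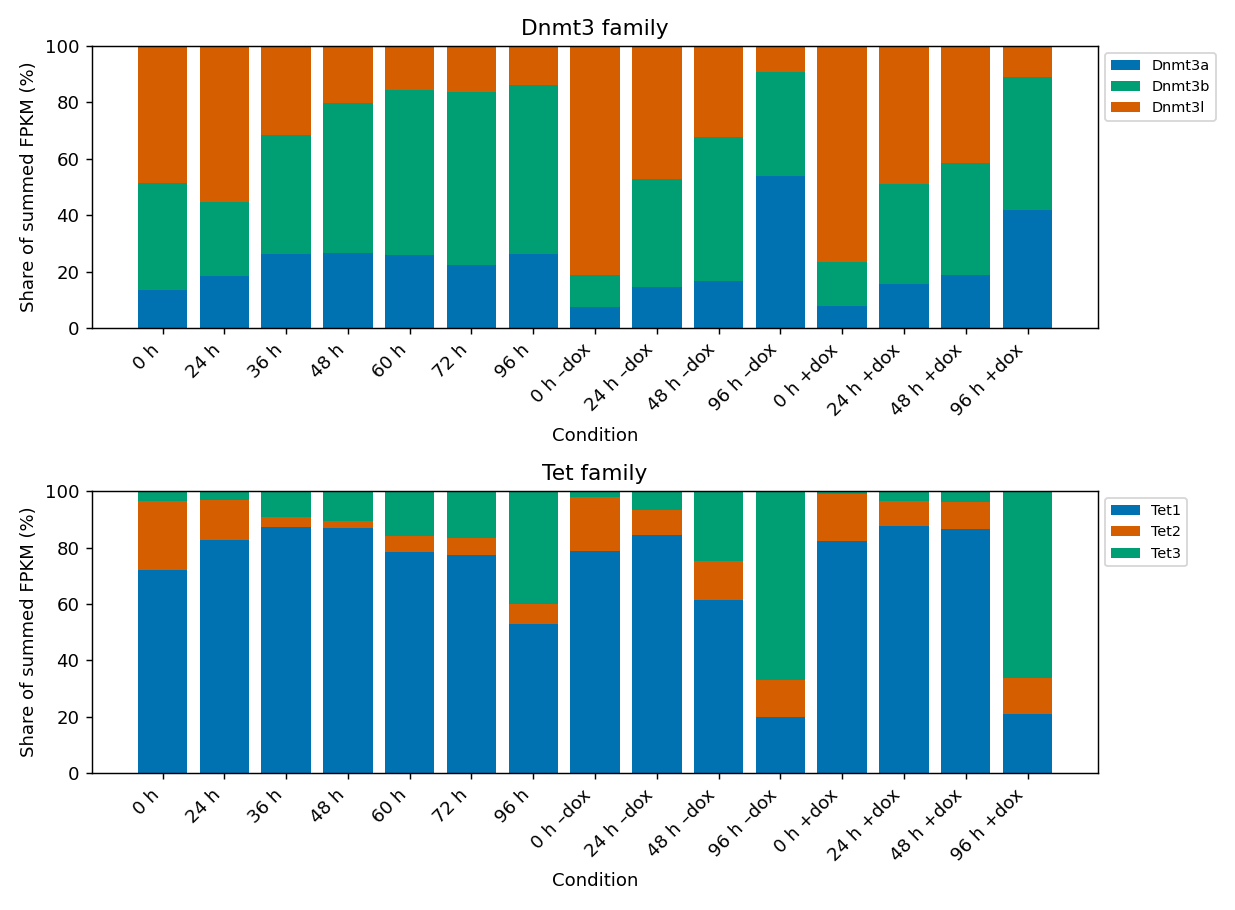
Share of the summed FPKM of the Dnmt3 genes (upper plot) and the Tet genes (lower plot) held by each gene, in percent, in the 15 conditions, each a single value over 2 replicates. Dnmt3l holds from 9.36% (96 h –dox) to 81.2% (0 h –dox) of the Dnmt3 sum, and Tet3 holds 67.0% of the Tet sum in 96 h –dox.

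By interval, Dnmt3a, Dnmt3b and Dnmt3l rose from 0 to 24 h and no member fell, where 8.64% of all genes rose and 14.3% fell. From 24 to 48 h Dnmt3b and Tet3 rose and Dnmt3l and Tet2 fell, where 8.59% of genes rose and 8.21% fell, and Tet3 no longer passed with 1 FPKM added to both values. From 48 to 72 h Dnmt3a, Dnmt3b and Dnmt3l fell and no member rose, where 9.81% of genes rose and 7.01% fell. From 72 to 96 h these 3 and Tet1 fell and none rose, where 5.10% of genes rose and 5.01% fell. Between the ends of the course, 0 and 96 h, Dnmt3a, Dnmt3b and Tet3 rose and Tet1 and Tet2 fell, where 16.8% of genes rose and 16.4% fell. The share of members called was above that of all genes in each interval, on counts of 3 to 5 genes that include 3 members of 1 family. The fibroblast marker sum moved with the first interval. It was 1274 FPKM at 0 h and 399 FPKM at 24 h, with Col1a1 at 229 and 20.96 FPKM, and 16 of the 19 markers that reached 1 FPKM fell. The part of these cells in the 0 h values was not tested. In the interval from 48 to 72 h, where the 3 Dnmt3 genes fell, the sum was 196 and 97.9 FPKM, of which Vim was 134 and 57.0 FPKM.

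Genes that act with these enzymes were examined as lists, and a gene of a list is called measured where it reached 1 FPKM in either condition. Of 8 partners of maintenance methylation, Hells, a chromatin remodeller needed for methylation of repeats, rose from 0 to 24 h, from 79.0 to 213 FPKM, and none fell, with a median log2 ratio of 0.26 against -0.01 over all genes tested. Of 8 genes that supply the methyl donor, Mat2a, which makes S-adenosylmethionine, rose in the same interval from 65.2 to 198 FPKM and was back at 70.0 FPKM at 60 h, and the other 7 did not pass. Of 7 genes from families of methyl-CpG binding proteins, Mbd3, a subunit of the NuRD complex, rose from 94.1 to 197 FPKM. Zbtb4 fell, from 1.27 to 0.44 FPKM. Of 16 replication genes none changed by 2-fold from 0 to 24 h, with a median log2 ratio of 0.32. The replication genes are of interest beside Dnmt1 and Uhrf1, which are both known to be expressed in S phase.

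Among 9 measured regulators of methylation in naive cells, 2 fell from 0 to 24 h and none rose. They were Prdm14, a repressor of the de novo enzymes, which went from 18.8 to 1.73 FPKM, and Dppa3, which shields DNA from UHRF1 and went from 168 to 13.6 FPKM. Trim28, the corepressor at imprinted and repeat sequences, was at 1297 FPKM at 0 h and 2024 FPKM at 24 h, which was below the 2-fold rule. Of 13 base excision repair genes, Gadd45a rose and Neil1, Neil2 and Gadd45b fell. Gadd45b, a stress-induced gene linked to demethylation, had 24.7, 4.88 and 117 FPKM at 0, 36 and 96 h. Of 12 germline genes known to be silenced by promoter methylation, 4 rose and 2 fell from 0 to 24 h. From 0 to 96 h, 3 of 10 measured rose and 4 fell. Dazl, a germ cell RNA-binding protein, had 39.2, 47.3 and 0.668 FPKM at 0, 24 and 96 h, while Mael, a piRNA pathway gene, was at 3.41, 13.2 and 4.08 FPKM at these times. These genes thus moved both ways in the first interval. From 24 to 48 h 1 rose and 4 fell. After that only falls were called, 2 from 48 to 72 h and 5 from 72 to 96 h.

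Re-seeding of 2i/LIF cells in serum/LIF without dox compared these culture conditions, with whatever differed in feeders and density, and with no withdrawal in between. Dnmt3l was the member that changed most. It was at 34.7 FPKM in 2i/LIF and 421 FPKM in 0 h –dox, a rise of 12.1-fold, whereas Dnmt3a went from 9.71 to 38.3 FPKM and Dnmt3b from 26.8 to 59.0 FPKM, rises of 3.94-fold and 2.20-fold. Tet1 rose 2.12-fold, from 30.3 to 64.2 FPKM. These 4 members rose and none fell, where 12.0% of genes rose and 10.1% fell. Tet2 was at 10.3 and 15.6 FPKM, and Dnmt1, Uhrf1, Tet3 and Tdg were within 1.11-fold of their 2i/LIF levels. Dnmt3l accordingly held 81.2% of the Dnmt3 sum in 0 h –dox, its largest share in any condition, and the Dnmt3 sum was 518 FPKM, between its levels at 60 and 72 h of withdrawal. The fibroblast marker sum was 1274 FPKM at 0 h and 115 FPKM in 0 h –dox, with Col1a1 at 229 and 1.45 FPKM and Lum listed at 0 in 0 h –dox, and the part of this difference was not tested. Otx2, Pou3f1, Zic2, Etv4 and Sox3 rose among 6 measured formative genes in the same comparison. They were at 55.2, 3.64, 17.0, 126 and 2.57 FPKM in 0 h –dox. Fgf5 was not among the 6, being below 1 FPKM in both conditions, at 0.164 and 0.287 FPKM. Of the germline genes, 6 of 12 rose and 2 fell, with Mael at 31.5 FPKM in 0 h –dox.

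The 5′ end of Dnmt3l, on chromosome 10 from 78041947 to 78063622 on the plus strand of GRCm38, overlaps the gene Aire on the minus strand by 1664 bases. Aire was at 7.46 and 25.8 FPKM at 0 and 24 h, was highest in 0 h –dox, at 98.5 FPKM, and was lowest in 96 h +dox, at 0.136 FPKM. Whether the counting used strand is not given in the sources used here, so reads from the shared bases cannot be assigned between these 2 genes. The genes that overlap Dnmt3a, Dnmt3b, Tet3 and Tdg on the other strand were below 1 FPKM in every condition, at 0.890 FPKM or less. The values are per gene and merge isoforms, so the catalytic and truncated forms of Dnmt3a, Dnmt3b and Tet1 are not separated. Processed pseudogenes exist for Dnmt3a, Dnmt3l and Tdg, and Dnmt3c, a close copy that lies beside Dnmt3b, was not analysed here, so reads shared with these copies are uncertain.

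Re-seeding after 24, 48 or 96 h asked what serum/LIF does to cells already on the way out. From 24 h to 24 h –dox no member rose, and Dnmt3a, Dnmt3l, Tet2 and Uhrf1 fell, where 14.9% of genes rose and 10.6% fell. The fibroblast sum went from 399 to 90.7 FPKM in this step, of which Vim was 299 and 60.7 FPKM. Of 16 measured markers 12 fell and 1 rose, and the part of the sum was not tested. From 48 h to 48 h –dox Tet2 rose, from 1.02 to 2.16 FPKM, and Uhrf1, Dnmt3a, Dnmt3b, Dnmt3l and Tet1 fell, where 15.3% of genes rose and 11.5% fell, and Tet2 no longer passed with 1 FPKM added to both values. Dnmt3a went from 292 to 31.8 FPKM and Dnmt3b from 585.5 to 98.5 FPKM. The fibroblast sum was 196 and 181 FPKM, of which Vim was 134 and 135 FPKM. Of 15 measured markers 5 rose and 4 fell, and the part of these was not tested. From 96 h to 96 h –dox Dnmt3b, Dnmt3l and Tet1 fell and none rose, where 12.4% of genes rose and 11.2% fell. The fibroblast sum rose over this last step from 113 to 481 FPKM, of which Vim was 63.3 and 299 FPKM. Of 18 measured markers 12 rose and 3 fell, with Col1a1 at 5.64 and 33.2 FPKM. Dcn and Lum were below 1 FPKM in 96 h –dox, and the part of the sum was not tested.

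Since re-seeding took 48 h, cells re-seeded at 24 and 48 h have the same total time as 72 and 96 h of continued withdrawal. Against 72 h, 24 h –dox had nearly equal Dnmt3a and Dnmt3b, at 75.0 and 195 FPKM against 73.6 and 201 FPKM. Dnmt3l was 4.47-fold higher, at 241 FPKM against 53.9 FPKM, and Tet3 was lower, at 1.95 FPKM against 3.99 FPKM, which no longer passed with 1 FPKM added to both. These were the 2 members that changed, where 5.40% of genes were higher and 4.89% lower. Against 96 h, 48 h –dox differed by the rule only in Dnmt3l, at 62.5 FPKM against 18.5 FPKM, a 3.39-fold difference, where 6.36% of genes were higher and 6.51% lower. Dnmt3l thus stood apart from the catalytic Dnmt3 genes in both comparisons, which share no condition, and the share of members called was near the background in the second.

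**Figure D3:**
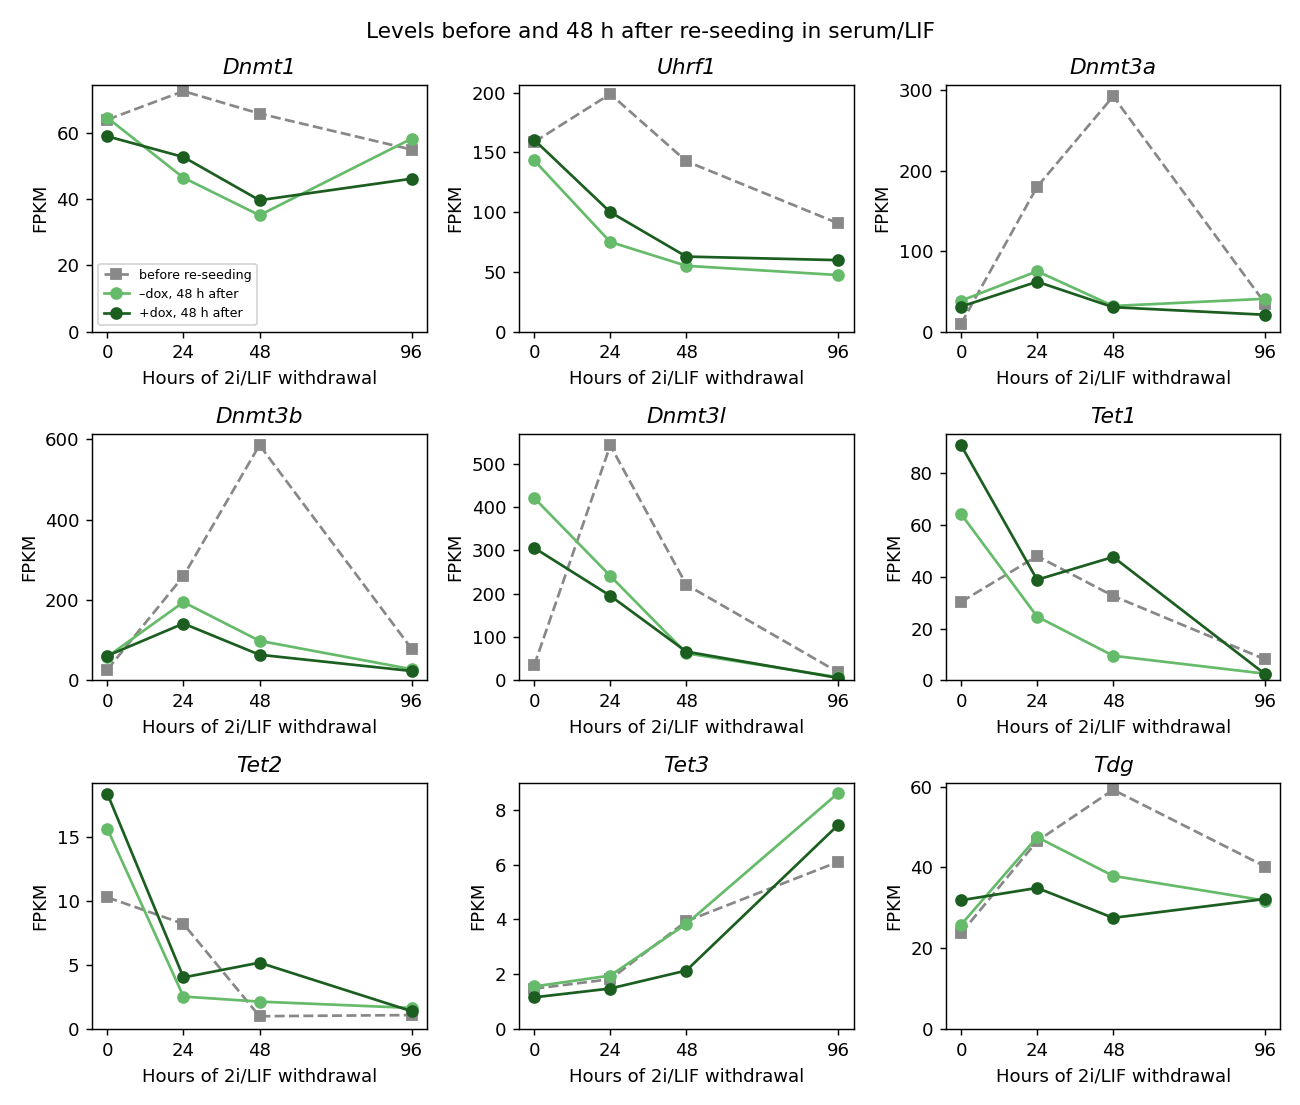
FPKM (vertical axes from 0, scaled per gene) against hours of 2i/LIF withdrawal, for cells before re-seeding (grey dashed) and 48 h after re-seeding in serum/LIF –dox (light green) or +dox (dark green), with 1 value over 2 replicates per point and no error bars. Before re-seeding, Dnmt3a and Dnmt3b are highest at 48 h among the times plotted, at 292 and 585.5 FPKM, and in 48 h –dox they are at 31.8 and 98.5 FPKM. The –dox and +dox lines of Tet1 part at 48 h, at 9.51 and 47.6 FPKM.

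Across the –dox cells themselves, levels after re-seeding differed with how long 2i/LIF had been withdrawn. These comparisons share the 0 h –dox condition. Dnmt3l was at 421, 241, 62.5 and 7.09 FPKM in cells re-seeded at 0, 24, 48 and 96 h, a stepwise fall to 0.0169 of the first value. Tet1 was at 64.2, 24.6, 9.51 and 2.58 FPKM and Uhrf1 at 143, 75.0, 55.1 and 47.3 FPKM, each also lower at every step. Tet2 was at 15.6, 2.55, 2.16 and 1.66 FPKM. Tet3 ran the other way, at 1.56, 1.95, 3.84 and 8.61 FPKM. Dnmt3b was highest in 24 h –dox, at 59.0, 195, 98.5 and 27.9 FPKM, as was Dnmt3a, at 38.3, 75.0, 31.8 and 40.8 FPKM. Dnmt1 was at 64.4, 46.4, 35.1 and 58.2 FPKM and Tdg at 25.8, 47.5, 37.9 and 31.8 FPKM, with no steady direction.

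Against 0 h –dox, 24 h –dox had 1 member risen and 2 fallen where 20.1% of genes changed, 48 h –dox had 1 risen and 4 fallen where 32.6% changed, and 96 h –dox had 1 risen and 5 fallen where 43.2% changed. The riser was Dnmt3b in the first and Tet3 in the other 2 comparisons, and in 48 h –dox Tet3 no longer passed with 1 FPKM added. In 48 h –dox Uhrf1 was at 0.384 of its 0 h –dox level. In this comparison 1 of the 16 replication genes fell and none rose, with a median log2 ratio of -0.42. No maintenance partner of the 8 passed the rule, with a median of -0.39, against -0.02 over all genes tested. From 0 h –dox to 96 h –dox 7 of the 16 replication genes fell and 1 rose. Their median log2 ratio was -0.86 against -0.01 over all genes tested, and Hells, Cdca7 and Lig1 fell among the 8 maintenance partners. The fibroblast sums along these cells were 115, 90.7, 181 and 481 FPKM, of which Vim was 91.8, 60.7, 135 and 299 FPKM. The part of either in the members' values was not tested. In 96 h –dox the order within both families had turned. Dnmt3a held 53.8% of the Dnmt3 sum and Dnmt3l 9.36%, and Tet3 held 67.0% of the Tet sum and Tet1 20.1%. Dnmt1 was above Uhrf1 in that condition alone of the 15, with a Uhrf1 to Dnmt1 ratio of 0.813 against 2.22 in 0 h –dox. In 96 h +dox, where the fibroblast sum was 145 FPKM, Tet3 still held 66.4% of the Tet sum. Dnmt3b, not Dnmt3a, was the highest Dnmt3 gene there, with 47.0% of the Dnmt3 sum against 41.8% for Dnmt3a. The Uhrf1 to Dnmt1 ratio was 1.30.

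The +dox cells asked whether the OSKM factors change these levels. By the 2-fold rule dox changed members only in cells re-seeded at 48 h. There Tet1 was at 9.51 FPKM in –dox and 47.6 FPKM in +dox, a 5.01-fold rise, and Tet2 was at 2.16 and 5.20 FPKM, a 2.41-fold rise that no longer passed the rule with 1 FPKM added to both values. These were 2 of 9 members, against 6.56% of genes that rose, and no member fell, against 6.46% of genes that fell. Tet3 was at 3.84 and 2.14 FPKM, a ratio of 0.557. At 0, 24 and 96 h no member changed, where 9.23%, 6.27% and 17.7% of genes did.

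Tet1 and Tet2 were both higher in +dox than in –dox at 0, 24 and 48 h and lower at 96 h. For Tet1 the ratios of +dox to –dox were 1.41, 1.58, 5.01 and 0.917 at 0, 24, 48 and 96 h, and for Tet2 they were 1.18, 1.58, 2.41 and 0.847. For Tet3 the ratios were 0.746, 0.759, 0.557 and 0.865, all below 1, as were those of Dnmt3a, at 0.811, 0.826, 0.953 and 0.511. The last was just short of the 2-fold rule, at 40.8 FPKM –dox against 20.8 FPKM +dox, and it passed the rule under 2 other scalings. Uhrf1 had ratios from 1.12 to 1.33 on the values as deposited, but with equal sums its log2 ratio at 0 h was -0.07. Dnmt1, Dnmt3b, Dnmt3l and Tdg had ratios between 0.648 and 1.23. Since each value combines both replicates, ratios of this size cannot be set against the spread between them.

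**Figure D4:**
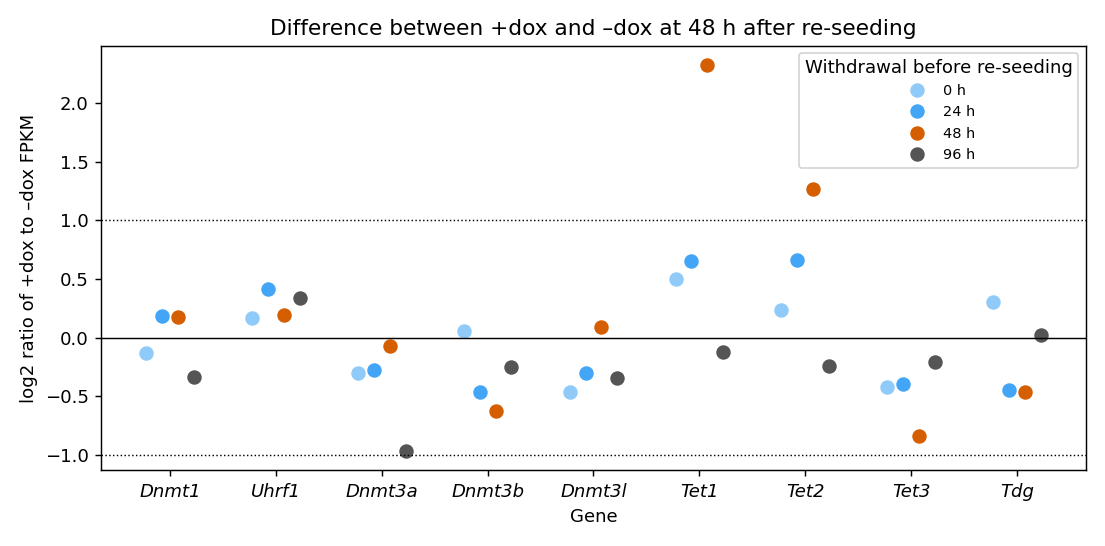
log2 ratio of +dox to –dox FPKM (vertical axis) for the 9 genes (horizontal axis) in cells re-seeded at 0, 24, 48 and 96 h, with 1 value over 2 replicates per point, and dotted lines at a 2-fold difference either way. Tet1 at 2.32 and Tet2 at 1.27, both at 48 h, are the points outside the dotted lines.

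In 48 h +dox, Tet1 stood closer than Tet2 to its level in iPSCs moved to serum/LIF. Tet1 in 48 h +dox was at 47.6 FPKM, 0.742 of the 64.2 FPKM in 0 h –dox, and Tet2 was at 5.20 FPKM, 0.332 of 15.6 FPKM. Dnmt3l, at 66.4 FPKM, was 0.158 of its 421 FPKM there, and Uhrf1, at 62.8 FPKM, was 0.438. By the rule Tet2, Dnmt3l and Uhrf1 had lower values in 48 h +dox and no member had a higher one, where 24.7% of genes changed. With Tet1 higher and Tet3 lower, dox went with a Tet1 share of the Tet sum of 86.7% against 61.3%, and a Tet3 share of 3.89% against 24.8%.

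Other genes of the lists are given for the same comparison at 48 h. Of 9 measured naive pluripotency genes, 7 rose with dox, among them Esrrb, an orphan nuclear receptor of the naive network, from 8.31 to 56.2 FPKM. Klf4 and the other transgene-encoded factors cannot be separated here into endogenous and transgene transcripts. Of 8 measured regulators of methylation in naive cells, Dppa3, at 4.08 and 11.1 FPKM, and Zfp57, which protects imprints, at 62.1 and 154 FPKM, rose. None of the 16 replication genes and none of the 8 maintenance partners changed. Of 7 measured Tet partners Wt1 fell and none rose. The fibroblast sum was 181 FPKM in –dox and 71.9 FPKM in +dox, of which Vim was 135 and 25.5 FPKM. Of 14 measured markers 8 were lower and 2 higher with dox, and the part of the sum was not tested.

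Likeness between members was described by Pearson's r of log2(FPKM + 1) across the 15 conditions, which come from 1 cell line and a common start, so that many genes follow the same order. Dnmt3a and Dnmt3b had r of 0.93, Dnmt3l and Tet1 0.87, Dnmt3b and Tdg 0.86, and Dnmt1 and Uhrf1 0.80. Tet1 and Tet3 had r of -0.91 and Tet2 and Tet3 -0.79. Dnmt3l and Dnmt3a, in contrast, had r of 0.57 over all 15 conditions and 0.82 over the 7 timepoints.

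Among the genes that reached 10 FPKM in some condition, 9069 in all, the genes most like each member were taken from its 3 closest. For Dnmt3a they were Tfdp1, Fcor and Ccno, with r from 0.93 to 0.94, and for Dnmt3b they included Pim2 and Cdk2ap1, with r of 0.97 and 0.96. Pim2, a serine/threonine kinase, had 4.43, 82.5 and 286 FPKM at 0, 24 and 48 h. For Dnmt3l they were E2f4, Sult4a1 and Dppa2, with r from 0.96 to 0.98, where Dppa2, a chromatin protein of early embryos, had 15.4 and 59.0 FPKM at 0 and 24 h and 65.0 FPKM in 0 h –dox. For Tet1 they were Etv4, Gm19553 and Mga, with r from 0.96 to 0.97. Etv4, a target of FGF signalling, had 10.2 FPKM without and 42.3 FPKM with dox at 48 h.

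For Tet2 the closest genes were Slc25a20, Mapt and Tbx3, all with r of 0.96, and Tbx3, a naive pluripotency factor, had 51.5, 12.6 and 0.994 FPKM at 0, 24 and 48 h. For Tet3 they were Casp6, Arhgap28 and Cacfd1, with r from 0.94 to 0.96. For Uhrf1 they were Gtf2e2, Tk1 and D2Wsu81e, with r from 0.95 to 0.97, of which Tk1 is the thymidine kinase of S phase. For Dnmt1 they included Fscn1 and Ints3, with r of 0.92 and 0.89. For Tdg they were Pou3f1, Gmps and Klhl7, with r from 0.89 to 0.91, and Pou3f1, a formative transcription factor, was at 0.827 FPKM at 0 h and 69.6 FPKM at 48 h. These lists depend on the conditions used, since over the 7 timepoints alone no member kept more than 1 of its 3 genes. They depend on the measure and the genes compared as well. The lists of 5 members were counted as moved with Spearman rank correlation, and those of 2 members with all genes that reach 1 FPKM.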

How the data were processed

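RNA-seq was done on 30 samples, 2 for each of 15 conditions. According to the study's methods and the submitters' processing notes, the authors mapped reads with TopHat2 2.0.14 to mm10, used Cufflinks 2.2.1 on the Gencode M4 annotation (6 biotypes, no transcript under 200 bp), and ran Cuffdiff, which combined both replicates of a condition. The deposited table holds these FPKM values, 1 per gene and condition, and 5 columns of the authors' calls of response to dox and of dynamic group, which were not used. The library normalization and the strand setting are not given in the sources used here. The table is named for RPKM and the methods say FPKM.

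Values were used as deposited, with Python 3.11.15, pandas 2.3.3 and numpy 2.4.6, and plotted with matplotlib 3.10.9. A change was a plain ratio of at least 2 with the higher value at least 1 FPKM, over all genes that reached 1 FPKM in either condition. With 1 value per condition there was no test. FPKM sums ran from 603278 to 832607 per condition and the factors from median ratios from 0.982 to 1.04. The scripts were tested on simulated data. Alternatives were other fold thresholds, scalings, minimum levels and added FPKM, and for likeness other genes, conditions or ranks.

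The members and lists were chosen with earlier results of these data known. The text names all 9 members, the 3 genes most like each (of which 2 genes are not reported here), up to 3 genes of each list with the widest range, and genes a member is set beside. Genes such as Prdm14, Dppa3, Dazl, Mael, Mbd3, Zbtb4, Neil1, Wt1, Fgf5, Pou3f1, Sox3 and Lum were named after their values were seen. The comparisons that start from 0 h –dox were added after the data were seen. Positions are from Gencode M21 and sequences from RefSeq, both on GRCm38 (mm10), and all 9 members matched by symbol.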

Additional observations from a re-analysis of the deposited data

Results flagged for a closer look

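For 5 members the ratio of –dox to the timepoint re-seeded from passed 2-fold in both directions, depending on the time of 2i/LIF withdrawal. The share of all genes that did so is not available here. The timepoints that these ratios start from differed widely themselves. Dnmt3a was at 9.71, 179.7, 292 and 34.7 FPKM at 0, 24, 48 and 96 h, and at 38.3, 75.0, 31.8 and 40.8 FPKM in the matching –dox cells. The difference between the times was not tested, since each condition has a single value over both replicates. For Dnmt3a the ratio of –dox to the timepoint re-seeded from was 3.94 for 0 h, 0.417 for 24 h and 0.109 for 48 h. For Dnmt3b it was 2.20 for 0 h, 0.168 for 48 h and 0.354 for 96 h. For Dnmt3l it was 12.1 for 0 h, 0.445 for 24 h, 0.283 for 48 h and 0.384 for 96 h. For Tet1 it was 2.12 for 0 h, 0.292 for 48 h and 0.319 for 96 h. Tet2 went the other way, with 0.310 for 24 h and 2.12 for 48 h, from a level of 1.02 FPKM, and with 1 FPKM added to both values its rise at 48 h fell below 2-fold, which leaves 4 members. The 0 h condition had the highest fibroblast marker sum, 1274 FPKM, and its part in the 0 h ratios was not tested.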

How the results depend on the processing

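No paired analysis was possible because each column of the table combines both replicates, and for the same reason no replicate could be left out in turn and depth cannot be given. No ratio of a member that met the 2-fold rule changed sign under another scaling or with 1 FPKM added. Of the ratios that did not meet it, 14 changed sign, 12 with equal sums and 2 with factors from median ratios, and these were at most 0.29 on the log2 scale as deposited, among them Dnmt1 from 0 to 96 h and Uhrf1 with dox at 0 h. A single ratio was taken as moved when it shifted by more than 1.5-fold, and a count when it differed by more than 1.5 times. With a 1.5-fold rule the members changed numbered 5 from 0 to 24 h, 8 from 0 to 96 h, 5 from 96 h to 96 h –dox, 5 from 96 h to 48 h –dox, 7 from 0 h –dox to 24 h –dox, and 2, 4 and 1 with dox at 24, 48 and 96 h. With a 3-fold rule they numbered 1 from 24 to 48 h, 0 from 72 to 96 h, 2 from 0 h to 0 h –dox, 1 from 24 h to 24 h –dox, 1 from 96 h to 96 h –dox, 1 from 72 h to 24 h –dox, 3 from 0 h –dox to 48 h –dox, and 1, Tet1, with dox at 48 h. With 1 FPKM added, 1 member changed between 72 h and 24 h –dox and 1 with dox at 48 h, and Tet3 was no longer called from 24 to 48 h, nor Tet2 from 48 h to 48 h –dox. In these cases the threshold or the added value itself moved the count. The shares of all genes under these settings are not available here, so these counts cannot be set against them. With factors from median ratios, and with equal sums, 1 member, Dnmt3a, changed with dox at 96 h, where none did on the values as deposited. Equal sums also added Tdg from 0 to 24 h and from 0 to 96 h, and took Uhrf1 off the 8 members changed over the time course. Against 0 h –dox they added Dnmt3a in 24 h –dox, at a log2 ratio of 1.00. They likewise added Dnmt1 in 48 h –dox and in 48 h +dox, at -1.11 and -1.02. Equal sums shifted the median log2 ratio of all genes by up to 0.34, from 48 to 72 h. Of 513 log2 ratios of members under other scalings or with 1 FPKM added, 510 moved by less than 1.5-fold. The other 3, all of Tet2 with 1 FPKM added, came to -2.19 from 24 to 48 h, -2.42 from 0 to 96 h and -2.64 from 0 h –dox to 96 h –dox. Shares within a family moved by at most 0.86 percentage points with 0.1 FPKM added.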
